A study of Mus musculus with 18 samples.

Results

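The comparison described here is that of the newborn mouse oviduct after prenatal exposure to diethylstilbestrol (DES), a synthetic nonsteroidal estrogen, with the oviduct after exposure to the oil vehicle. It rests on 6 of the 18 samples in the study: the 3 arrays labelled as oviduct and DES, and the 3 labelled as oviduct and oil. Per the labels, pregnant ICR mice received daily injections from fetal day 10 to 18, at 67 µg DES per kg of maternal body weight in the DES group, and RNA was extracted on the day of birth. The mice were outbred and no other genotype is stated, so both groups share strain, injection schedule and age and differ by the agent injected. The RNA came from 3 litters per the labels, but whether each array holds 1 litter, and how many pups, is not stated. The arrays are of the Affymetrix MOE430A type, on which a probe set is a group of short probes for 1 transcript. Signals below are scaled to a common trimmed mean of 500 and are relative units. They may be compared between arrays but not between genes. The uterus of the same study (3 DES and 3 oil arrays) was used as a comparison, and the 17 MOE430A arrays of the study were fitted together with limma to estimate the spread. A gene is said to rise or fall where its p, adjusted over all probe sets tested, was under 0.05. Values in brackets after a gene are log2 changes, DES minus oil, or, where every detection call of the lower group was Absent, a lower bound ("at least N-fold"). Such a bound allows only for signals under the lowest one called Present on their array. Where there were none it equals the fitted fold, and it leaves out the spread between arrays, so the true change may be smaller. Where a call was lost when 1 array was left out, the highest adjusted p over the 6 such fits and the array are given in brackets.

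As background, the oviduct, uterus and upper vagina form from the Müllerian duct. The oviduct epithelium contains ciliated cells, whose beating moves oocyte and embryo, and secretory cells, which make glycoproteins such as Ovgp1. Motile cilia are built under the transcription factors Foxj1 and the Rfx family. DES acts through the estrogen receptors Esr1 and Esr2. Position along the tract is set in part by Hox genes of the posterior paralogue groups and by Wnt signals, and earlier mouse work placed Wnt7a and Hoxa10 among the genes that DES lowers in the developing tract.

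Some records go against the labels. The sample record inside DES array 3 names the vagina, but on this array the signal of Ovgp1, the oviduct-specific glycoprotein, was 4219, against 75.3 to 142 on 5 vagina arrays, and that of the basal keratin Krt15 was 129, against 1193 to 14311. The arrays numbered 3 in both groups were scanned on a later day, and their analysis names give an age of 19 dpc, where those of the others give 0 d. The file of detection calls for oil array 1 repeats that of DES array 1, so signals of oil array 1 came from the value table and it has no calls, and Absent in the oil group refers to oil arrays 2 and 3. On the other 5 arrays, 53.9% to 66.3% of probe sets were called Present, and the trimmed mean before scaling was 59.9 to 113. Ovgp1, the transcription factor Pax8 and the epithelial genes Epcam, Krt8 and Krt18 were called Present on all 5 arrays with calls, as were Wt1 and Acta2, which mark mesothelium and stroma, and smooth muscle.

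Markers of neighbouring tissues were not evenly spread over the arrays, and this bears on what follows. The summed signals given for marker lists compare arrays only. The brightest probe sets weigh most in them, so a sum need not move as most of its genes do. Summed over 32 skeletal muscle genes, the signal was 7730.1, 4111 and 15384 on oil arrays 1, 2 and 3 and 3102 to 4099 on the DES arrays. Ckm, the muscle creatine kinase, was at 30.0, 125 and 120.4 on the DES arrays and 524, 89.4 and 841 on the oil arrays. Skeletal muscle transcripts were thus highest on oil arrays 1 and 3, called the oil arrays with muscle transcripts below. Oil array 2 was much lower, but its sum lay just above the highest DES array. The median level of the list was 118 on oil array 2 and 54.9 to 94.8 on the DES arrays. Of the 32 genes, 0 fell and 1 rose, namely the atrial light chain Myl4 (log2 change 1.42, SE 0.31, adjusted p = 0.00696), while 11 had an unadjusted limma p under 0.05, as had 21.8% of all genes. With the replicate number as a block 2 rose and 4 fell. Myod1, Myog, Myf5 and Chrna1 were Absent in both groups. Summed over 19 ovarian and germ cell genes, the signal was 5588, 8708 and 4633 on the oil arrays and 1794 to 2968 on the DES arrays, highest on oil array 2. Of these genes 6 fell (10 with the replicate number as a block), namely Dppa3 (-2.66), Sycp3 (at least 5.56-fold), Tex15 (-2.40), Amhr2 (at least 4.04-fold), Dazl (at least 3.32-fold) and Syce2 (-0.81). Dppa3, a factor of oocytes and primordial germ cells, was at 139, 137 and 128 on the DES arrays and 835, 2064 and 614 on the oil arrays, so that all DES arrays lay below all oil arrays. Sycp3 and Syce2 belong to the meiotic synaptonemal complex and Dazl to the germ cell RNA-binding proteins. Ddx4, Dazl, Sycp3 and Figla were called Present on no DES array. Germ cells are not a part of the oviduct wall, and their share in other differences was not tested. The call of Dazl was lost without DES array 3 (adjusted p = 0.112).

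Many genes differed between the DES and oil oviduct, with large rises among genes of motile cilia. Of 9637 genes tested, 516 rose (5.35%) and 394 fell (4.09%) in the DES oviduct, 910 in all (9.44%). Counted over probe sets, 733 rose and 567 fell of 16702, or 1300 in all (7.78%). With the replicate number as a block in the fit, called the block below, the genes that rose numbered 854 (8.86%) and those that fell 807 (8.37%), and all 910 were among them. With oil arrays 1 and 3 left out, which leaves oil array 2 alone in its group with a spread taken from the other groups, 186 of the 516 rises and 85 of the 394 falls kept the call, and the share of rises among the probe sets called was 69.7% against 56.4% with all arrays. Large changes were mostly rises: a log2 change of at least 2 was reached by 99 genes that rose and 18 that fell. The groups did not overlap for 906 of the 910 genes, and for 2529 of all 9637 (26.2%). Statements below that the groups of a called gene were apart therefore describe its values and add no further support. Of the 910, 468 kept the call whichever of the 6 arrays was left out. After the counts of a list below, the rises and falls with the block and those without oil arrays 1 and 3 stand in brackets, always with the rises first. For all genes the latter were 205 (2.13%) and 88 (0.913%). The lists were chosen with earlier results of these data known, so their counts beside those of all genes are descriptions and not tests. In bulk tissue fewer cells of a type and less RNA per cell cannot be told apart.

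The gene with the largest rise was Hp, which encodes haptoglobin, the plasma protein that binds free haemoglobin. Its signal was 4343, 3612 and 7016 on the DES arrays and 24.7, 10.9 and 112 on the oil arrays (log2 change 6.10, SE 0.42, adjusted p = 8.9e-08). Emb, the embigin subunit that carries monocarboxylate transporters to the membrane, was at 5443, 5840.2 and 5687 on the DES arrays and 256, 140.4 and 233 on the oil arrays (log2 change 4.59, SE 0.17, adjusted p = 6.86e-11). Bcat1, the cytosolic transaminase of branched-chain amino acids, was at 4896, 3821 and 5544 on the DES arrays and 206, 139 and 196 on the oil arrays (log2 change 4.49, SE 0.18, adjusted p = 1.29e-10). For all 3 genes the lowest DES array lay far above the highest oil array, and lack of overlap was a condition of their choice. The other rises among the 20 with the largest log2 changes included 5 genes of ciliated cells and several enzymes and secreted proteins, taken up below. Of those on no list, Qpct, a glutaminyl cyclase, was at least 12.2-fold higher, Cbs, the cystathionine beta-synthase of transsulfuration, had a log2 change of 3.27, and Agr3, a protein disulfide isomerase of ciliated airway cells, was at least 8-fold higher. Cidea, a lipid droplet protein, was at 620.1, 602 and 531 on the DES arrays and 8.72, 13.4 and 13.3 on the oil arrays (at least 11.9-fold higher, adjusted p = 5.36e-06).

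Gdf10, a secreted TGF-beta family member, showed the largest fall. Its signal was 106, 139 and 87.2 on the DES arrays and 1241, 1384 and 1502 on the oil arrays (log2 change -3.31, SE 0.21, adjusted p = 4.97e-08). Crabp1, a cytosolic retinoic acid binding protein, was at 167, 125 and 82.1 on the DES arrays and 1085, 972 and 1433 on the oil arrays (log2 change -2.95, SE 0.19, adjusted p = 4.97e-08). Moxd1, a monooxygenase-like protein, was at 962, 605 and 407 on the DES arrays and 3614, 3905 and 3813 on the oil arrays (log2 change -2.54, SE 0.26, adjusted p = 8.38e-06). The groups were well apart for each. Further falls on no list were Lgi1 (-2.23), Aard (at least 4.38-fold), Kcnip1 (at least 3.91-fold), Nts (-1.96), Tnfrsf19 (-1.95) and Chodl (at least 3.50-fold). Nts encodes the peptide neurotensin, Tnfrsf19 a receptor of the TNF family, Lgi1 a secreted leucine-rich repeat protein and Kcnip1 a potassium channel subunit.

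**Figure D1:**
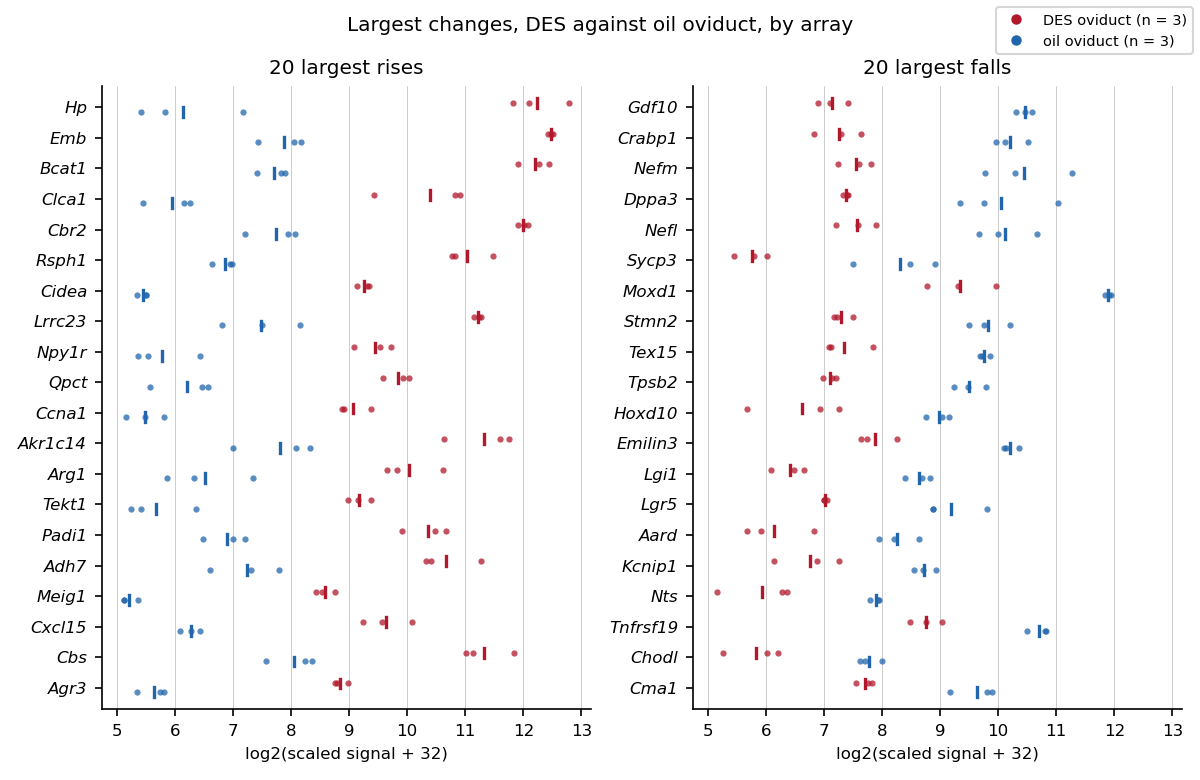
Signal on each array, as log2(scaled signal + 32), of the 20 largest rises (left) and 20 largest falls (right) among genes past the threshold. Points are the 3 DES (red) and 3 oil (blue) oviduct arrays and the short lines are group means. Only genes Present throughout the higher group and without overlap between the groups were eligible, so the lack of overlap follows from the choice. Hp and Gdf10 are at the top of their panels.

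Several of the larger falls were of genes that mark other cells. The summed signal of 14 mesothelial genes was 26748, 26663 and 29888 on the oil arrays and 19423 to 21513 on the DES arrays, with no overlap. Of these genes 5 fell and 0 rose (1 and 7 with the block, 0 and 1 without oil arrays 1 and 3), and the falls were Upk3b (-1.70), Wt1 (-1.44), Msln (-1.19), Gpm6a (-0.79) and Igfbp5 (-0.63). Upk3b is a uroplakin of the mesothelial surface, and Msln is mesothelin. Of 30 neuronal and Schwann cell genes, whose sum was 7756 to 8395 on DES and 9868 to 11989.6 on oil arrays, 4 fell and 2 rose (2 and 5 with the block, 1 and 4 without oil arrays 1 and 3). The neurofilament genes Nefm (-2.89) and Nefl (-2.55), the growth cone gene Stmn2 (-2.52) and Gap43 (-0.92) fell, while Rtn1 (at least 6.86-fold) and Dbh (at least 2.69-fold) rose. Tubb3, Prph, Elavl4 and Sox10, which define neurons and Schwann cells, were Absent on all arrays with calls. Among 10 mast cell genes, summing to 5156 to 7053 on DES and 4957 to 6560.0 on oil arrays, the granule proteases Tpsb2 (at least 5.24-fold), Cma1 (at least 3.77-fold), Cpa3 (at least 2.92-fold) and Tpsab1 (-1.46) fell, as did the transcription factor Gata2 (-0.88). In the same list Hdc, which makes histamine, and Hpgds, which makes prostaglandin D2, rose (2.30 and 2.94), which made 2 rises and 5 falls (3 and 5 with the block, 1 and 5 without oil arrays 1 and 3). Among 28 macrophage and leukocyte genes, 10266 to 11824 on DES and 11919 to 13256 on oil arrays, Pf4 (-0.81) and Tyrobp (-0.60) fell and Cd14 (1.03) rose (1 and 5 with the block, 0 and 0 without oil arrays 1 and 3). Of 8 adipocyte genes Cidea (at least 11.9-fold) and Fabp4 (0.97) rose (2 and 0 with the block, 1 and 0 without oil arrays 1 and 3), and of 8 renal tubule genes Umod (at least 2.62-fold) rose and Cdh16 (-0.91) fell (1 and 2 with the block, 0 and 0 without oil arrays 1 and 3). Over all genes tested 5.35% rose and 4.09% fell, and the macrophage and leukocyte list was near this, with 3.57% and 7.14%. Of its 28 genes 7 had an unadjusted limma p under 0.05, against 21.8% of all genes. Limma made no call among 4 red blood cell genes (0 with an unadjusted p under 0.05) or 5 liver and pancreas genes (1), with or without the replicate block. Calls lost on leaving out 1 array, with the highest adjusted p, were those of Msln (0.131 without DES array 1), Gpm6a (0.0783 without DES array 2), Igfbp5 (0.0603 without oil array 3), Gap43 (0.13 without oil array 2), Dbh (0.132 without DES array 1), Tyrobp (0.17 without oil array 2), Pf4 (0.0845 without oil array 1), Fabp4 (0.169 without DES array 1) and Umod (0.16 without DES array 2). The part of these cells in the differences below was not tested.

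**Figure D2:**
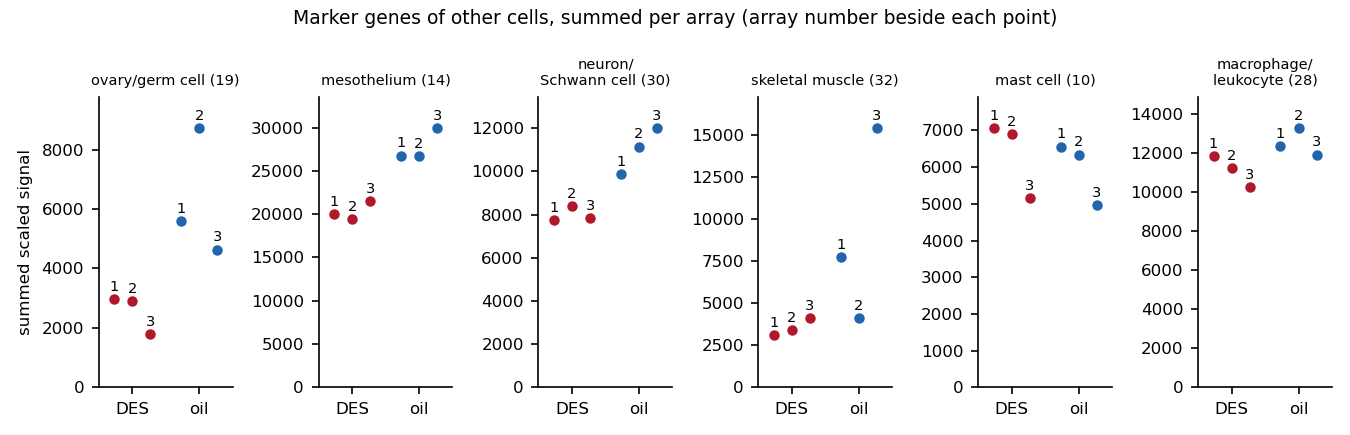
Summed scaled signal (vertical axis, relative units) of the marker genes of 6 other cell types on the 3 DES (red) and 3 oil (blue) oviduct arrays. Each point is an array with its number above it, and the number of genes summed is in brackets. The sums of all lists shown but that of mast cell genes lie lower on all DES arrays than on all oil arrays. The margin is narrow for macrophage and leukocyte genes and for skeletal muscle genes. The skeletal muscle sum is highest on oil arrays 1 and 3, with oil array 2 close to the highest DES array.

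Genes of motile cilia rose together in the DES oviduct. In the list of radial spoke, central pair, tektin and microtubule inner proteins, 17 of 20 tested genes rose and 0 fell (19 and 0 with the block, 13 and 0 without oil arrays 1 and 3), against 5.35% and 4.09% of all genes, and the median log2 change was 1.51 against -0.06 over all genes. Of 52 genes listed, 20 were on the array.  The gene with the largest change was Rsph1, a radial spoke head protein, at 1789.9, 1727 and 2824 on the DES arrays and 95.2, 91.1 and 67.6 on the oil arrays (at least 18.0-fold higher, adjusted p = 2.55e-07). Lrrc23, which belongs to the spoke head as well, was at 2242, 2429 and 2383 on the DES arrays and 149.6, 252 and 80.5 on the oil arrays (at least 13.2-fold higher, adjusted p = 1.74e-05). Tekt1, a filament protein inside the doublet microtubules, was at 475, 539.5 and 631 on the DES arrays and 5.81, 10.9 and 49.95 on the oil arrays (at least 9.78-fold higher, adjusted p = 1.66e-05). On every DES array each of these genes was several times as bright as on the brightest oil array, and oil arrays 2 and 3 were called Absent.

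Other structural genes showed smaller differences of the same sign. Meig1, best known from spermatid manchettes, was at 339, 402 and 315 on the DES arrays and 2.905, 9.19 and 3.10 on the oil arrays (at least 7.80-fold higher, adjusted p = 4.9e-06). Parts of the nexin-dynein regulatory complex, Drc1 (at least 6.55-fold) and Drc3 (2.98), and of the central pair, Spag6l (at least 6.36-fold), rose, as did Nme5 (at least 6.23-fold), Tppp3 (2.81), Rsph9 (1.505), Cfap298 (1.44), Tekt2 (1.41), Ropn1l (at least 2.60-fold) and Cfap36 (1.16). Of the tubulins, Tubb4b (1.51) and Tuba1a (0.72) rose, and probes for these and for Spag6l may also read close paralogues. In intraflagellar transport, which carries parts along the growing cilium, Ift57 (0.74) rose, while Ift20 (0.57, adjusted p = 0.228, 0.0408 with the block) and Ift88 (0.39, adjusted p = 0.305) did not pass. Only a few of the axonemal dyneins, the motors of the cilium, could be read: of 21 listed, 5 were on the array and 3 tested. Dnaaf1, a factor that assembles dynein arms, rose (at least 3.82-fold higher, adjusted p = 0.0144), and Dnah5 (1.63, adjusted p = 0.0708, 0.00185 with the block) did not pass without the block. Calls lost on leaving out 1 array were Dnaaf1 (0.0548 without oil array 2), Rsph9 (0.0852 without oil array 1) and Ropn1l (0.081 without DES array 1).

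Some regulators of ciliated cell fate rose. Foxj1, the forkhead factor that switches on motile cilium genes, was at 411, 562 and 681 on the DES arrays and 71.9, 158 and 59.2 on the oil arrays (at least 4.71-fold higher, adjusted p = 0.00664). Myb, which acts early in multiciliated cells, was at 1250.3, 1404 and 1634 on the DES arrays and 274, 279.9 and 367 on the oil arrays (log2 change 2.11, SE 0.20, adjusted p = 3.95e-06). Ccna1, a cyclin found in multiciliated and germ cells, was at 632, 453 and 440.1 on the DES arrays and 13.1, 24.2 and 3.54 on the oil arrays (at least 9.99-fold higher, adjusted p = 1.89e-05). The groups did not overlap for any of them. Of 10 regulators tested, these 3 rose and 0 fell (3 and 2 with the block, 2 and 0 without oil arrays 1 and 3), and the median log2 change was 0.07. Rfx3, Plk4, E2f4 and E2f5, which act in ciliogenesis and centriole formation, did not pass: Rfx3 (0.23, adjusted p = 0.812), Plk4 (-0.40, adjusted p = 0.0755, 0.0304 with the block), E2f4 (0.03, adjusted p = 0.973) and E2f5 (-0.52, adjusted p = 0.449, 0.0457 with the block). Rfx2 and Trp73 were on the array but too rarely Present to be tested, and Mcidas and Ccno were not analysed here.

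**Figure D3:**
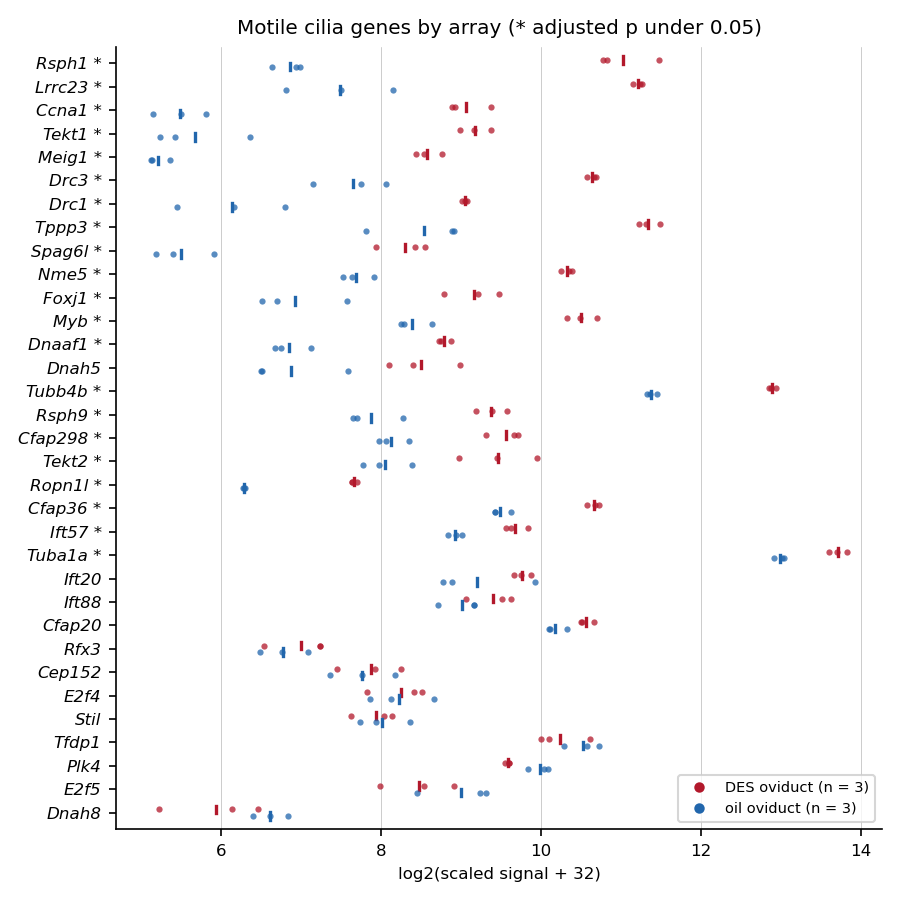
Signal on each array, as log2(scaled signal + 32), of the tested genes of motile cilia and their regulators. Points are the 3 DES (red) and 3 oil (blue) oviduct arrays, short lines are group means, and asterisks mark an adjusted p under 0.05. The DES arrays lie to the right for the genes in the upper part, and the regulators at the bottom, such as E2f4 and Stil, overlap.

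The promoters of the ciliary genes that rose are shown because Rfx factors bind the X-box. Of the 21 genes that rose in the 3 ciliary lists, 16 matched the RefSeq promoter table (GRCm38.p6), with 21 windows from 250 bases before to 50 bases after a start site. The X-box core letters GTTGCC, on either strand, were in 9 of the 21 windows (8 genes: Cfap298, Drc1, Ift57, Lrrc23, Ropn1l, Spag6l, Tekt1 and Tekt2), and in 12.5% of all 32851 windows. A longer pattern, the palindromic X-box consensus with free inner bases, was in 5 windows (Cfap298, Ift57, Rsph9, Spag6l and Tekt1) and in 4.62% of all windows, and it can overlap the shorter letters. The forkhead letters TGTTTGT were in 0 of the 21 windows and in 6.61% of all. Windows of 1 gene can share bases, and a match is a description of the letters. Promoters of 5 of the 8 genes with GTTGCC follow 5′ to 3′ in the gene's direction, with GTTGCC, or GGCAAC where it lies on the other strand, in capitals. Only genes with a match are shown, so they do not stand for all 16 genes with a window. For Tekt1, which has 2 windows, the one with the most matches is given.
Lrrc23, chr6:124779678-124779977, minus strand: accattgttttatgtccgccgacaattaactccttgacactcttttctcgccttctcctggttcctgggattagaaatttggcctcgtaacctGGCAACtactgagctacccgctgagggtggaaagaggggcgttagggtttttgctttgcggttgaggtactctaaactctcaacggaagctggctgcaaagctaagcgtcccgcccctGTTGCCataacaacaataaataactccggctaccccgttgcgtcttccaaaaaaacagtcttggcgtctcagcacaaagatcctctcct
Tekt1, chr11:72361833-72362132, minus strand: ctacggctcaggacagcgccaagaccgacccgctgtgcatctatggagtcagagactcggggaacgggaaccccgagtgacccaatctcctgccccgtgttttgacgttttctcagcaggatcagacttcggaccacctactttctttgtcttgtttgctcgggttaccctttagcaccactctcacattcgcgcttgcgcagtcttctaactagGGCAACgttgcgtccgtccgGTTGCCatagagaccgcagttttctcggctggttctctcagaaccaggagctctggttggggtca
Cfap298, chr16:90934800-90935099, minus strand: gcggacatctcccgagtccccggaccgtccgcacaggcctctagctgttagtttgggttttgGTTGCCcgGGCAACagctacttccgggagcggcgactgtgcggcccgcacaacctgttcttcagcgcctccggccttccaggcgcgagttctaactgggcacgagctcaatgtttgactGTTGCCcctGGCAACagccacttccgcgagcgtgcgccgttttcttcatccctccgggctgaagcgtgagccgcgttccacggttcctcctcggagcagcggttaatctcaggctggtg
Drc1, chr5:30281143-30281442, plus strand: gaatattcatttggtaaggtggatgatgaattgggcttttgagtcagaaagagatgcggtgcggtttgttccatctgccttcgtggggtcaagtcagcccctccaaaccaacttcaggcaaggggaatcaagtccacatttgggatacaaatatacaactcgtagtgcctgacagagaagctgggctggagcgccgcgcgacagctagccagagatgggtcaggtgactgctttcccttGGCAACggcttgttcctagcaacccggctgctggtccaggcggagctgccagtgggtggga
Spag6l, chr16:16829314-16829613, minus strand: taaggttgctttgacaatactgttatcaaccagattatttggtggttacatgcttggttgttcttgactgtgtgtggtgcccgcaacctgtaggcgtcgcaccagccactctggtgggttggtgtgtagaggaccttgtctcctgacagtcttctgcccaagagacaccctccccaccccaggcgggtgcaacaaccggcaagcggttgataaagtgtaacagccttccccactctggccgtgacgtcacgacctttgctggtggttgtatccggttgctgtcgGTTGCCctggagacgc

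Of 13 tested genes of oviduct secretion and identity, 4 rose and 2 fell (4 and 3 with the block, 3 and 1 without oil arrays 1 and 3), with a median log2 change of 0.03. Ovgp1, the oviduct-specific glycoprotein that coats the oocyte and embryo, was at 5139, 6049 and 4219 on the DES arrays and 922, 919 and 859 on the oil arrays (log2 change 2.46, SE 0.26, adjusted p = 9.97e-06). Plet1, a surface protein of epithelial progenitors, was at 10131, 9205 and 10681 on the DES arrays and 2349, 1736 and 2417 on the oil arrays (log2 change 2.20, SE 0.21, adjusted p = 3.04e-06). Wnt7a, the Wnt ligand of the Müllerian duct epithelium, went the other way, at 17.1, 18.3 and 79.3 on the DES arrays and 343, 377 and 397 on the oil arrays (at least 6.18-fold lower, adjusted p = 0.000121). Within each of these genes the DES and oil arrays were fully apart. The remaining calls were Cd24a (1.74) and Epcam (0.76), surface proteins of epithelia, and Msln (-1.19). Pax8, which marks the Müllerian epithelium, was at 922, 957 and 681 on the DES arrays and 1164, 739 and 814 on the oil arrays and did not pass (log2 change -0.07, adjusted p = 0.935). Of other secreted or cytosolic products, Serpina3a (-1.18, adjusted p = 0.057, 0.0157 with the block), Ecrg4 (-0.41, adjusted p = 0.316) and Sult1d1 (1.25, adjusted p = 0.133) did not pass. The calls of the following were lost when 1 array was omitted: Epcam (0.207 without oil array 2) and Msln (0.131 without DES array 1).

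Genes of mucous secretion rose in part. Clca1, a secreted protein of goblet cells, was at 1774, 657 and 1896 on the DES arrays and 45.0, 11.7 and 39.4 on the oil arrays (at least 18.8-fold higher, adjusted p = 0.00036). The disulfide isomerase Agr2 (at least 7.65-fold), the mucin glycosyltransferases Gcnt3 (at least 3.79-fold) and Galnt3 (1.44) and the goblet cell factor Spdef (at least 2.50-fold) rose too. That made 5 of 15 tested genes, with 0 falls (6 and 0 with the block, 2 and 0 without oil arrays 1 and 3) and a median log2 change of 0.61 (0.52 with lower bounds in place of fitted values). The mucin Muc5b (1.06, adjusted p = 0.115) did not pass. The calls of Agr2 (0.0735 without DES array 3), Spdef (0.218 without oil array 1) and Galnt3 (0.13 without oil array 2) were lost on leaving out 1 array.

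Of 19 genes of innate defence and the acute phase, 5 rose and 0 fell (8 and 2 with the block, 3 and 0 without oil arrays 1 and 3), with a median log2 change of 0.70. They were Hp, the chemokine Cxcl15 (at least 10.3-fold), the siderophore-binding lipocalin Lcn2 (2.48), lactoferrin, Ltf (at least 2.35-fold), and the calcium-binding S100a8 (1.21). Lcn2 was at 1156, 1161 and 839 on the DES arrays and 156, 149.5 and 175 on the oil arrays (log2 change 2.48, SE 0.27, adjusted p = 1.47e-05). Ltf, whose iron-binding product is an estrogen target in the mouse uterus, was at 482, 512 and 782 on the DES arrays and 248, 242 and 197 on the oil arrays (at least 2.35-fold higher, adjusted p = 0.00985). Both were higher on every DES array, and Ltf lost its call without DES array 3 (adjusted p = 0.0529). The summed macrophage and leukocyte markers were 10266 to 11824 on the DES arrays and 11919 to 13256 on the oil arrays. The part of leukocytes in these rises was not tested.

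Of 37 tested steroid receptors and estrogen targets, 14 rose and 2 fell (17 and 4 with the block, 8 and 1 without oil arrays 1 and 3), with a median log2 change of 0.45 (0.28 with lower bounds in place of fitted values). Greb1, which binds the estrogen receptor and is switched on by it, was at 379.9, 385 and 333 on the DES arrays and 51.6, 34.2 and 27.9 on the oil arrays (at least 5.74-fold higher, adjusted p = 6.54e-06). Pgr, the progesterone receptor and a classic estrogen target, was at 275, 206 and 151 on the DES arrays and 36.3, 40.1 and 42.4 on the oil arrays (at least 3.31-fold higher, adjusted p = 0.000677). Padi1, a peptidylarginine deiminase, was at 1600.3, 932 and 1403 on the DES arrays and 57.4, 115 and 96.8 on the oil arrays (at least 11-fold higher, adjusted p = 9.64e-08). The groups were apart in each, and oil arrays 2 and 3 were called Absent. The related Padi2 (2.54), the water channel Aqp5 (at least 4.32-fold), the receptor-modifying Ramp3 (2.10), the nuclear corepressor Nrip1 (1.68), the inhibin subunit Inhbb (1.51), creatine kinase B, Ckb (1.51), and Xbp1 (0.83) rose. The cornified envelope gene Sprr2f (at least 5.85-fold) rose as well, although its probes may read close paralogues.

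Of the receptors, Esr1, the estrogen receptor alpha, was at 133, 194 and 256 on the DES arrays and 296, 229 and 614 on the oil arrays and did not pass (log2 change -0.79, adjusted p = 0.392). Esr2 did not pass the filter on calls. Wnt4, a ligand needed for the Müllerian duct, and Gata2, a factor upstream of Pgr in the uterus, fell (-0.88 and -0.88). Of 16 genes called on this list, all had a promoter window, 19 in all. The palindromic estrogen response element was in 0 of the 19 and in 0.07% of all windows.

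Junction and keratin genes of simple epithelium rose in 15 of 31 cases, with 1 fall (19 and 2 with the block, 8 and 0 without oil arrays 1 and 3), and their median log2 change was 0.70. Krt8, a keratin of simple epithelia, was at 5315, 5799 and 6551 on the DES arrays and 3013, 2278 and 3052 on the oil arrays (log2 change 1.08, SE 0.17, adjusted p = 0.000517), and its partner Krt18 rose too (0.70). Cldn10, a tight junction claudin that forms ion pores, was at 2327, 2517 and 2602 on the DES arrays and 758, 663 and 459.8 on the oil arrays (log2 change 1.96, SE 0.26, adjusted p = 9.22e-05). Both were higher on all DES arrays. Other claudins and junction proteins that rose were Cldn23 (at least 3.25-fold), Cldn7 (1.67), Tjp3 (1.37) and Cldn3 (0.64). The apical membrane protein Prom1 (1.57), the vesicle protein Rab25 (1.13), the protease system Spint1 (0.95) and St14 (0.86), and the epithelial factors Elf3 (1.32), Elf5 (at least 2.06-fold) and Grhl2 (0.94) rose with them. Tjp1, which is also in endothelium and stroma, fell (-0.37). The adhesion gene Cdh1 (1.04, adjusted p = 0.0795, 0.0004 with the block) and Krt19 (0.69, adjusted p = 0.118, 0.00129 with the block) did not pass without the block. When 1 array was left out, calls were lost for Epcam (0.207 without oil array 2), Cldn3 (0.0798 without oil array 1), Tjp1 (0.166 without oil array 1), Elf5 (0.0615 without DES array 2), Grhl2 (0.0521 without DES array 1) and St14 (0.08 without oil array 3).

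Among 27 genes of stratified and cornifying epithelium, 4 rose and 1 fell (5 and 3 with the block, 4 and 1 without oil arrays 1 and 3), with a median log2 change of -0.01. The rises were Padi1, Sprr2f, the serine protease inhibitor Serpinb11 (2.88) and the desmosomal Perp (1.42), and Fgfbp1, which frees FGF from matrix, fell (-1.04). Trp63, the master regulator of stratified epithelium, was at 49.1, 50.4 and 39.2 on the DES arrays and 109.7, 148 and 69.0 on the oil arrays and did not pass (log2 change -0.81, adjusted p = 0.12), and Krt14, the basal keratin, was called Absent in both groups. Of the epithelial transcription factors, 4 of 23 rose and 2 fell (4 and 4 with the block, 3 and 1 without oil arrays 1 and 3). Klf4, a factor of differentiating epithelium, was at 1544, 1361 and 1159 on the DES arrays and 243, 208 and 165 on the oil arrays (log2 change 2.55, SE 0.19, adjusted p = 2.89e-07), with the groups apart. Foxa2, which uterine glands need, rose (at least 2.43-fold higher, adjusted p = 0.0169), and Gata6 (-0.83) fell, but calls were lost on leaving out 1 array for Foxa2 (0.0825 without oil array 3), Elf5 (0.0615 without DES array 2) and Gata6 (0.0839 without oil array 3).

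In the posterior Hox groups, which pattern the lower tract, 3 of 8 tested genes fell and 0 rose (0 and 5 with the block, 0 and 2 without oil arrays 1 and 3), with a median log2 change of -0.77. Hoxd10 was at 122, 89.5 and 19.4 on the DES arrays and 539, 494 and 402 on the oil arrays (log2 change -2.36, SE 0.28, adjusted p = 3.68e-05). Hoxd9 was at 284, 214 and 151 on the DES arrays and 763, 710.2 and 663 on the oil arrays (log2 change -1.61, SE 0.26, adjusted p = 0.000632). Hoxa11 was at 163, 190.3 and 95.5 on the DES arrays and 329.7, 331 and 263 on the oil arrays (log2 change -0.94, SE 0.23, adjusted p = 0.0155). The DES arrays were lower in each gene, and Hoxa11 lost its call without DES array 3 (adjusted p = 0.0778). Hoxa9 and Hoxa10, which mark oviduct and uterus along the axis, did not pass: Hoxa9 (-0.48, adjusted p = 0.0884, 0.0331 with the block) and Hoxa10 (-0.84, adjusted p = 0.189, 0.00338 with the block). Of 14 Hox genes of the anterior groups, Hoxb6 (0.82) rose and Hoxc8 (-0.78) fell (1 and 2 with the block, 0 and 0 without oil arrays 1 and 3), and both calls were lost on leaving out 1 array, Hoxb6 (0.124 without DES array 3) and Hoxc8 (0.181 without oil array 1). The anterior Hox shares, 7.14% for rises and 7.14% for falls, were near the 5.35% and 4.09% of all genes. Msx1 and Msx2, homeobox factors of Müllerian epithelium, did not pass: Msx1 (-0.45, adjusted p = 0.71), with Msx2 Absent in both groups.

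Wnt ligands, receptors and feedback targets were among the genes that fell. Of 24 ligands and receptors tested, 7 fell and 0 rose (1 and 7 with the block, 0 and 2 without oil arrays 1 and 3), with a median log2 change of -0.53. Wnt7a is given above. Lgr5, the R-spondin receptor of epithelial stem cells, was at 96.2, 96.4 and 100.1 on the DES arrays and 438, 867 and 441 on the oil arrays (at least 4.51-fold lower, adjusted p = 0.00136). Wnt4 was at 473, 445 and 399 on the DES arrays and 746, 794 and 971 on the oil arrays (log2 change -0.88, SE 0.19, adjusted p = 0.00619). The DES arrays were the lower ones for both. The ligands Wnt2 (-1.08) and Wnt6 (-0.97) and the Frizzled receptors Fzd7 (-0.89) and Fzd1 (-0.76) fell as well. Wnt5a and Wnt11, which act without beta-catenin in many tissues, did not pass: Wnt5a (0.60, adjusted p = 0.0732, 0.0114 with the block) and Wnt11 (-0.61, adjusted p = 0.168). The calls of Wnt2 (0.16 without DES array 2), Wnt6 (0.161 without oil array 2), Fzd1 (0.136 without DES array 1) and Fzd7 (0.15 without oil array 1) were lost on leaving out 1 array.

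Of 29 Wnt inhibitors, effectors and targets, 10 fell and 2 rose (2 and 11 with the block, 1 and 2 without oil arrays 1 and 3), with a median log2 change of -0.30. Axin2, a feedback inhibitor that reads out beta-catenin signalling, was at 206, 285 and 184 on the DES arrays and 672, 640.0 and 553 on the oil arrays (log2 change -1.36, SE 0.26, adjusted p = 0.00252). Nkd2, another feedback inhibitor, was at 136, 153 and 221 on the DES arrays and 707, 593 and 713 on the oil arrays (log2 change -1.82, SE 0.24, adjusted p = 0.000101). In both, every DES array was below every oil array. The effector Lef1 (at least 2.38-fold), the lipase Notum (-1.29), Nkd1 (-1.19), Dact1 (-1.06) and Apcdd1 (-0.93), the matricellular target Ccn4 (-1.10) and the secreted Frizzled-like Sfrp4 (-1.03) and Sfrp2 (-0.74) fell too. Of the Dickkopf family, the called members rose: Dkk3 was at 1497, 1433 and 1483 on the DES arrays and 399, 412 and 294 on the oil arrays (log2 change 1.92, SE 0.18, adjusted p = 2.75e-06), and Dkk2 was at 1030.0, 1261 and 645 on the DES arrays and 430.0, 394 and 245 on the oil arrays (log2 change 1.36, SE 0.25, adjusted p = 0.00198). Calls that depended on 1 array were Sfrp2 (0.0979 without oil array 3), Sfrp4 (0.164 without DES array 3), Apcdd1 (0.135 without DES array 3), Notum (0.156 without oil array 2) and Lef1 (0.106 without DES array 2).

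In the BMP, activin and TGF-beta list 7 of 42 genes fell and 2 rose (2 and 13 with the block, 0 and 3 without oil arrays 1 and 3), with a median log2 change of -0.43. Beside Gdf10 and Amhr2, the receptor of anti-Müllerian hormone, the secreted ligand Bmp4 (-0.84), its receptor Bmpr1a (-0.58), Smad5 (-0.91), the BMP target Id3 (-1.29) and the matrix protein Tgfbi fell. Tgfbi was at 2243, 2461 and 2814 on the DES arrays and 7634, 7264 and 9167 on the oil arrays (log2 change -1.67, SE 0.18, adjusted p = 1.36e-05). Amhr2 was at 18.4, 23.9 and 40.6 on the DES arrays and 88.6, 306 and 299 on the oil arrays (at least 4.04-fold lower, adjusted p = 0.00253), and it is also an ovarian gene whose list is described above. Inhbb and Smad1 rose (1.51 and 0.57). An omitted array ended the calls of Bmp4 (0.11 without DES array 1), Smad1 (0.0631 without oil array 1), Smad5 (0.0857 without DES array 3) and Id3 (0.063 without DES array 1).

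Among 22 retinoid genes 3 rose and 3 fell (3 and 5 with the block, 2 and 1 without oil arrays 1 and 3). The dehydrogenases Adh7 and Adh1 and the retinol dehydrogenase Rdh10, which oxidise retinol, rose. Adh7 was at 1334, 1248 and 2445 on the DES arrays and 127, 191 and 65.9 on the oil arrays (at least 10.8-fold higher, adjusted p = 6.11e-05), while Adh1 (1.69) and Rdh10 (0.61) had smaller values. Stra6, the retinol uptake receptor, was at 68.9, 52.3 and 56.3 on the DES arrays and 219, 282 and 402 on the oil arrays (at least 3.57-fold lower, adjusted p = 0.00645). Crabp1, given above, and Rarb, a retinoic acid receptor and target (-0.91), fell as well, and Rarb lost its call without DES array 3 (adjusted p = 0.0529). Other genes of retinol oxidation, binding and receptors did not pass, among them Rdh11 (0.19, adjusted p = 0.821), Aldh1a2 (-0.77, adjusted p = 0.0976, 0.00847 with the block), Crabp2 (-0.13, adjusted p = 0.744) and Rara (0.53, adjusted p = 0.293). Of 11 hedgehog genes 2 rose and 2 fell (3 and 3 with the block, 0 and 0 without oil arrays 1 and 3), so that no call was kept without oil arrays 1 and 3. Ptch1 and Hhip, receptors that the pathway induces and that dampen it, rose (1.11 and at least 4.12-fold). Gli3, mainly a repressor, and the co-receptor Gas1 fell (-0.89 and -0.94), and Gli3 lost its call without oil array 2 (adjusted p = 0.12). Limma called none of the 19 Notch genes, with or without the block (1 had an unadjusted p under 0.05, against 21.8% of all genes).

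Among 36 genes of FGF, EGF and IGF signalling, 7 fell and 2 rose (3 and 8 with the block, 1 and 1 without oil arrays 1 and 3). The falls were led by IGF-binding proteins, which hold IGF outside the cell: Igfbp3 (-1.14), Igfbp4 (-1.03), Igfbp2 (-0.98) and Igfbp5 (-0.63). Igf2, the fetal growth factor, fell (log2 change -0.54, SE 0.15, adjusted p = 0.032), as did its mRNA-binding protein Igf2bp3 (-0.54) and Fgfr2 (-0.44). The receptor substrate Irs1 (1.09) and the ERK phosphatase Dusp6 (0.78) rose. Of 20 imprinted growth genes 5 fell and 1 rose (1 and 8 with the block, 1 and 2 without oil arrays 1 and 3), with a median log2 change of -0.37. Dlk1, which holds back differentiation, was at 3967, 5597 and 6545 on the DES arrays and 10441, 11879 and 11938 on the oil arrays (log2 change -1.11, SE 0.21, adjusted p = 0.00233). Peg3 (-0.93), Mest (-0.84) and Nnat (-0.78) fell with it, and Asb4 rose (at least 4.54-fold higher, adjusted p = 0.000207). Calls lost on leaving out 1 array were Fgfr2 (0.147 without DES array 1), Igf2 (0.172 without DES array 1), Igfbp3 (0.082 without oil array 1), Igfbp5 (0.0603 without oil array 3), Igf2bp3 (0.136 without oil array 1) and Nnat (0.125 without oil array 3).

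Of 54 tested genes of the cell cycle and DNA replication, 15 fell and 0 rose (0 and 32 with the block, 0 and 0 without oil arrays 1 and 3). The median log2 change was -0.59, and 37 had an unadjusted p under 0.05, against 21.8% of all genes. Tk1, the S phase thymidine kinase, was at 432, 507 and 534 on the DES arrays and 843, 974 and 1261 on the oil arrays (log2 change -1.003, SE 0.20, adjusted p = 0.00434). Aurkb, a mitotic kinase, was at 301, 333 and 245 on the DES arrays and 611, 524 and 719 on the oil arrays (log2 change -0.998, SE 0.19, adjusted p = 0.00272). Mki67, the proliferation marker, was at 1225, 1514 and 1706 on the DES arrays and 2629.9, 2042 and 3253 on the oil arrays (log2 change -0.81, SE 0.20, adjusted p = 0.0156). Every DES array was below every oil array in all 3. The replicative helicase subunits Mcm7 (-0.85), Mcm3 (-0.85), Mcm5 (-0.83) and Mcm2 (-0.68) and their loader Cdt1 (-0.70) fell, with Pole (-1.18), Prim1 (-0.89) and Rrm2 (-0.58) of DNA synthesis and Bub1 (-0.84), Bub1b (-0.76), Top2a (-0.65) and Birc5 (-0.63) of mitosis. Without oil arrays 1 and 3, when limma called 0 of the list, 17 had an unadjusted p under 0.05, against 15.7% of all genes, and calls lost on leaving out 1 array were Mki67 (0.0908 without DES array 1), Top2a (0.113 without DES array 1), Cdt1 (0.13 without DES array 2), Mcm2 (0.161 without DES array 1), Mcm5 (0.157 without DES array 1), Mcm7 (0.119 without DES array 1), Rrm2 (0.0752 without DES array 2), Bub1 (0.165 without DES array 1), Birc5 (0.0715 without DES array 3) and Pole (0.0882 without oil array 3). The germ cell and mesothelial sums, which were lower on the DES arrays too, are given above, and their part in these falls was not tested.

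Of 26 DNA methylation and chromatin genes 5 fell and 0 rose (0 and 8 with the block, 0 and 0 without oil arrays 1 and 3): Hells (-1.05), Tet1 (at least 1.98-fold), Uhrf1 (-0.81), Dnmt1 (-0.72) and Hmgb2 (-0.55). Hells remodels nucleosomes for methylation, Dnmt1 and Uhrf1 copy methylation after replication, and Tet1 oxidises it. When 1 array was left out the call of Hells was kept and the others were lost, Dnmt1 (0.159 without oil array 3), Uhrf1 (0.159 without DES array 1), Tet1 (0.205 without oil array 2) and Hmgb2 (0.216 without oil array 1), and without oil arrays 1 and 3 that of Hells was lost too (adjusted p = 0.0554). Among 20 cell cycle inhibitors and p53 targets, Gadd45a, a stress-induced gene, was at 632, 704 and 934 on the DES arrays and 87.2, 103 and 27.4 on the oil arrays (at least 7.91-fold higher, adjusted p = 1.59e-05). Cdkn2b passed but was Absent in both groups, and Cdkn2c (-0.86) and Sesn1 (-0.52) fell (3 and 3 with the block, 1 and 1 without oil arrays 1 and 3). Calls lost here were Cdkn2b (0.13 without DES array 1), Cdkn2c (0.0729 without oil array 2) and Sesn1 (0.167 without DES array 1).

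The extracellular matrix list held 17 falls and 3 rises among 59 genes (8 and 20 with the block, 1 and 9 without oil arrays 1 and 3), with a median log2 change of -0.17. Emilin3, an elastin-associated glycoprotein, was at 181, 167 and 276 on the DES arrays and 1089.5, 1065 and 1283 on the oil arrays (log2 change -2.32, SE 0.20, adjusted p = 1.88e-06). Tnc, tenascin C of embryonic mesenchyme, was at 139, 184 and 328 on the DES arrays and 461, 684 and 612 on the oil arrays (log2 change -1.37, SE 0.26, adjusted p = 0.0026). Ogn, a small proteoglycan, rose, at 4191, 5374 and 3808 on the DES arrays and 1699.6, 1457 and 1337 on the oil arrays (log2 change 1.54, SE 0.18, adjusted p = 3.04e-05). The groups were apart in all 3. Collagens that fell were Col14a1 (-1.47), Col18a1 (-1.35) and Col12a1 (-0.87), and elastic fibre genes were Loxl1 (-1.48), Fbln1 (-1.21), Eln (-0.93) and Fbln2 (-0.51). Proteoglycans Vcan (-1.15) and Bgn (-0.82), metalloproteinases Mmp2 (-1.10) and Mmp23 (-1.14), basement membrane genes Npnt (-0.88), Lama4 (-0.78) and Nid2 (-0.74) and Postn (-0.57) fell. Lum, a proteoglycan, and the basement membrane collagen Col4a1 rose (0.95 and 0.60). The calls of the following were lost when 1 array was omitted: Col12a1 (0.168 without DES array 2), Eln (0.0612 without oil array 3), Fbln2 (0.0636 without DES array 2), Lama4 (0.204 without DES array 1), Nid2 (0.137 without oil array 3), Postn (0.121 without oil array 2) and Mmp23 (0.0534 without oil array 3).

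Smooth muscle genes gave no call: of 18 contractile genes 0 passed limma and 5 had an unadjusted limma p under 0.05, against 21.8% of all genes. With the block 1 rose and 1 fell, against 8.86% and 8.37% of all genes. Acta2 and Myh11, the smooth muscle actin and myosin, did not pass: Acta2 (0.05, adjusted p = 0.918) and Myh11 (0.15, adjusted p = 0.823). In the endothelial list 5.26% fell, near the 4.09% of all genes. Of 19 endothelial genes Esam (-0.52) fell (1 and 2 with the block, 0 and 0 without oil arrays 1 and 3), and its call was lost without oil array 2 (adjusted p = 0.132).

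Enzymes and carriers of amino acid, polyamine and monocarboxylate metabolism rose in 8 of 34 genes, with 0 falls (9 and 5 with the block, 3 and 0 without oil arrays 1 and 3) and a median log2 change of 0.09. Beside Emb and Bcat1, the arginases rose: Arg1 was at 1536, 773 and 879.6 on the DES arrays and 48.7, 131 and 26.1 on the oil arrays (at least 11.5-fold higher, adjusted p = 7.43e-05), and Arg2 was at 424, 471 and 440.1 on the DES arrays and 98.8, 124 and 78.7 on the oil arrays (log2 change 1.86, SE 0.30, adjusted p = 0.00058). Arginase makes ornithine, from which polyamines are built, and Sat1, which acetylates polyamines, rose (0.93), while Odc1 (-0.47, adjusted p = 0.111, 0.0456 with the block) did not. Ldha (0.98), Got1 (0.89) and Shmt2 (0.63) also rose. Basigin, the related escort protein, and the lactate carriers did not pass: Bsg (0.32, adjusted p = 0.163), Slc16a1 (0.11, adjusted p = 0.853) and Slc16a3 (-0.20, adjusted p = 0.891). When 1 array was left out, calls were lost for Shmt2 (0.152 without DES array 1) and Ldha (0.112 without DES array 1).

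Of 38 carbonyl reductases, glutathione enzymes and other enzymes of foreign compounds, 11 rose and 2 fell (14 and 3 with the block, 4 and 1 without oil arrays 1 and 3), with a median log2 change of 0.19. Cbr2, a carbonyl reductase of lung and tract, was at 3802, 4089.9 and 4297 on the DES arrays and 236, 214 and 116 on the oil arrays (log2 change 4.26, SE 0.34, adjusted p = 4.88e-07). Akr1c14, an aldo-keto reductase of steroids, was at 3438, 3066 and 1549.9 on the DES arrays and 291, 239.8 and 95.5 on the oil arrays (log2 change 3.52, SE 0.39, adjusted p = 1.47e-05), and its probes may read related genes. Gclc, the rate-limiting enzyme of glutathione synthesis, was at 1791, 1266 and 2053 on the DES arrays and 228, 213 and 419 on the oil arrays (log2 change 2.47, SE 0.23, adjusted p = 2.81e-06). All 3 were higher on every DES array. Smaller rises were Ephx1 (1.11), Cyp2s1 (1.09), Gstt2 (1.04), Cbr3 (0.97), Gsta4 (0.77), Gsto1 (0.74), Gpx1 (0.66) and Cbr1 (0.56). Haem oxygenase, Hmox1, and Gstm7 fell (-1.43 and -1.07). Calls that depended on 1 array were Cbr1 (0.185 without oil array 1), Cbr3 (0.0639 without DES array 3), Gsta4 (0.0606 without oil array 2), Gstm7 (0.166 without oil array 1), Gsto1 (0.115 without oil array 2) and Cyp2s1 (0.0703 without oil array 3).

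In prostaglandin biology, 3 of 14 genes rose and 2 fell (4 and 3 with the block, 1 and 1 without oil arrays 1 and 3). Hpgds was at 753, 853 and 942 on the DES arrays and 44.3, 156 and 71.6 on the oil arrays (log2 change 2.94, SE 0.42, adjusted p = 0.000211), the transporter Slco2a1 and the receptor Ptger4 rose (1.47 and 0.94), and the receptor Ptger3 and the prostacyclin synthase Ptgis fell (-1.80 and -0.84). Among 26 channels, transporters and water channels 8 rose and 0 fell (12 and 2 with the block, 4 and 0 without oil arrays 1 and 3), with a median log2 change of 0.56 (0.51 with lower bounds in place of fitted values). Car2, a carbonic anhydrase that yields bicarbonate, was at 6579, 5756 and 8109 on the DES arrays and 728, 781 and 808 on the oil arrays (log2 change 3.08, SE 0.30, adjusted p = 5.36e-06). Slc2a1 (1.97), Kcne3 (1.74), Slc39a4 (1.39), Slc12a2 (1.25), Car12 (1.02) and Kcnk1 (0.98) rose as well, which carry glucose, potassium, zinc and chloride or, for Car12, make bicarbonate. The chloride channel Cftr (1.05, adjusted p = 0.0646, 0.00721 with the block) did not pass without the block. An omitted array ended the calls of Slc2a1 (0.0829 without DES array 1), Slc39a4 (0.166 without oil array 1) and Car12 (0.146 without DES array 2).

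Of 12 neuropeptide, adrenergic and muscarinic receptor genes, Npy1r, a receptor of neuropeptide Y, was at 812, 509 and 713 on the DES arrays and 14.5, 9.19 and 54.4 on the oil arrays (at least 10.8-fold higher, adjusted p = 4.42e-07). Ramp3 rose, as given above, and its partner receptor Calcrl fell (-1.18), which made 2 rises and 1 fall (2 and 1 with the block, 1 and 0 without oil arrays 1 and 3). The call of Calcrl was lost without oil array 1 (adjusted p = 0.137). Of 20 immediate early genes, the apoptosis regulator Ier3 rose, at 2203, 2638 and 2863 on the DES arrays and 450.3, 371 and 389.5 on the oil arrays (log2 change 2.57, SE 0.23, adjusted p = 1.96e-06), and Fos (0.33, adjusted p = 0.828), Jun (-0.14, adjusted p = 0.86) and Egr1 (-0.02, adjusted p = 0.982) did not pass. That made 1 rise and 0 falls (1 and 0 with the block). The share of rises, 5%, was near the 5.35% of all genes. Cholesterol and fatty acid genes gave 3 rises and 0 falls of 26 (7 and 0 with the block, 4 and 0 without oil arrays 1 and 3): Fdps (1.06), Elovl5 (0.99) and Srebf1 (0.96). Among 27 chaperone and stress genes of the endoplasmic reticulum Edem1 (0.86), Xbp1 (0.83), Herpud1 (0.70), Selenos (0.47) and Sec61b (0.39) rose and 0 fell (8 and 0 with the block, 1 and 0 without oil arrays 1 and 3). Among 20 interferon response genes Bst2 (2.08) and Ifitm1 (0.76) rose (4 and 1 with the block, 1 and 0 without oil arrays 1 and 3). Calls lost on leaving out 1 array were Herpud1 (0.18 without oil array 1), Edem1 (0.203 without oil array 2), Selenos (0.0802 without DES array 1), Sec61b (0.214 without oil array 2) and Ifitm1 (0.0749 without DES array 1).

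**Figure D4:**
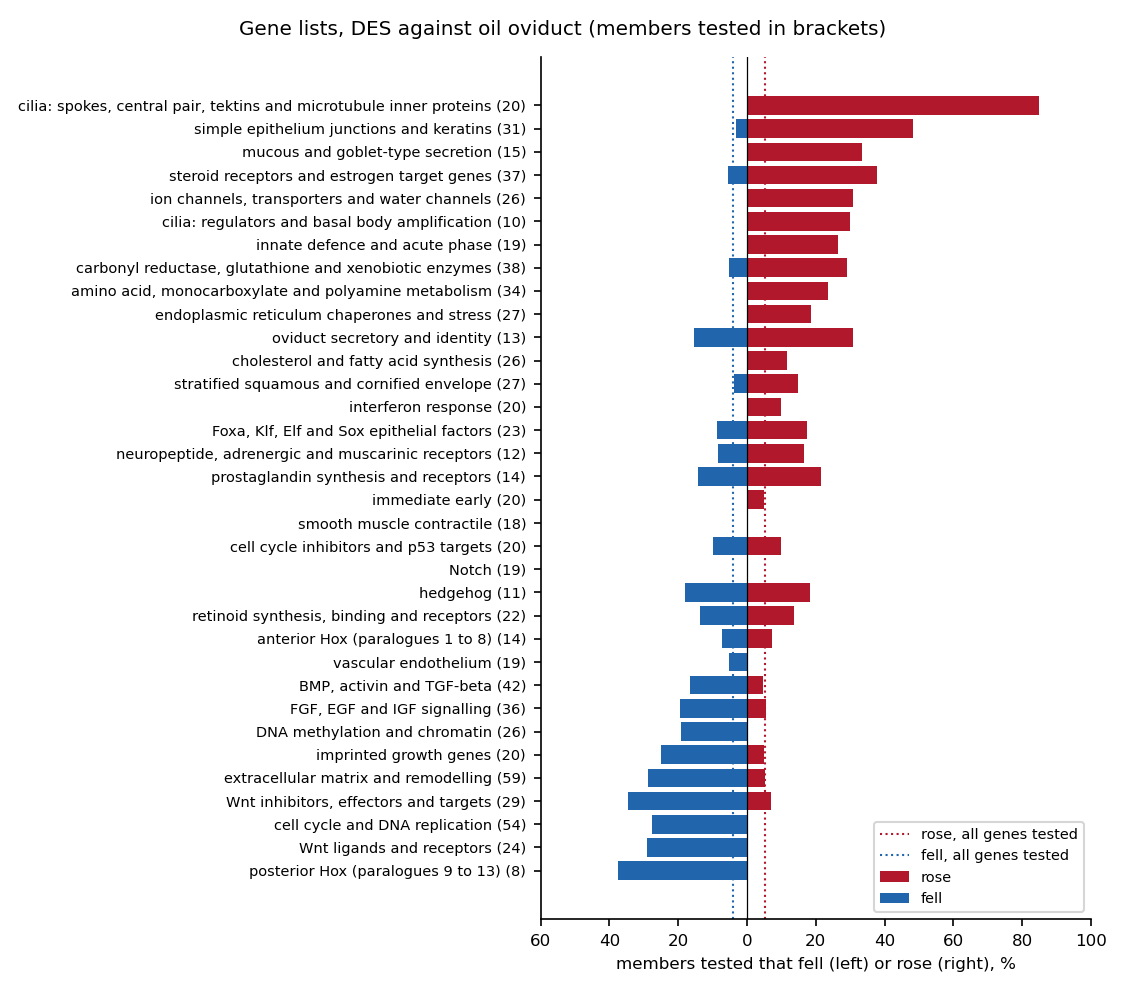
Share of the tested members of each gene list that rose (red, right) or fell (blue, left) in the DES oviduct at an adjusted p under 0.05, with the number tested in brackets. Dotted lines are the shares over all genes tested, 5.35% for rises and 4.09% for falls. The lists were chosen with earlier results of these data known, so the distance from the lines is no test. The ciliary spoke and tektin list is at the top, the Wnt, cell cycle and posterior Hox lists are at the bottom, and the Notch and smooth muscle lists have no bar.

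Whether the response was the same in the uterus was tested by the difference of the DES effects, oviduct minus uterus, in the same limma fit. The uterus has DES and oil arrays of its own. The difference passed for 168 of 9637 genes (1.74%), of which 107 were also called in the oviduct. For the other 803 genes called in the oviduct no difference was shown, which does not make the effects equal. Of the spoke and tektin list of motile cilia 12 of 20 genes differed, and all were higher in the DES oviduct. In the uterus 0 of the 20 rose and 0 fell against 5.61% and 4.25% of all genes (3 had an unadjusted p under 0.05, as had 21.6% of all), and the median log2 change was -0.02. The differences were largest for Lrrc23 (3.81), Meig1 (3.57), Rsph1 (3.47) and Tekt1 (3.34). Rsph1 differed by a log2 value of 3.47, SE 0.44, adjusted p = 0.000612. The differences of Ccna1 (3.40) and Agr3 (3.28) passed as well.

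Other large oviduct rises held genes whose difference passed and genes whose difference did not. These rises, and the large falls below, were chosen by their oviduct change, which favours differences toward the oviduct. Emb had a uterine log2 change of 1.48, and its difference was 3.11, SE 0.25, adjusted p = 4.4e-06. Adh7 had a uterine log2 change of 0.56 and a difference of 2.87, SE 0.61, adjusted p = 0.0243, and Cidea one of -0.09 and a difference of 3.90, SE 0.53, adjusted p = 0.00108. Cbr2 went the other way: its log2 change was 7.22 in the uterus, so that the difference was -2.96, SE 0.48, adjusted p = 0.00431. Hp, Bcat1 and Arg1 had uterine log2 changes of 3.89, 3.84 and 5.68, and their differences did not pass. Of the mucous list 10 of 15 rose in the uterus, and of the estrogen list 18 of 37, with 3 and 7 genes that differed. Of the cell cycle list 24 of 54 fell in the uterus, and 0 differed past the threshold (1 had an unadjusted p under 0.05, as had 10.3% of all genes). Of the 24 Wnt ligands and receptors 6 fell in the uterus and 0 differed (1 had an unadjusted p under 0.05).

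Among the large falls, 5 differed. Gdf10 had a uterine log2 change of -1.04 and a difference of -2.27, SE 0.30, adjusted p = 0.000781, and Moxd1 one of -0.87 and a difference of -1.67, SE 0.37, adjusted p = 0.0317. The differences of Dppa3 (-2.57), Sycp3 (-2.65) and Nefl (-2.15) are those of markers of germ cells and neurons whose levels in the oviduct arrays are given above. Crabp1, Hoxd10, Wnt7a and Lgr5 had uterine log2 changes of -2.23, -0.84, -2.60 and -1.32, with differences that did not pass.

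**Figure D5:**
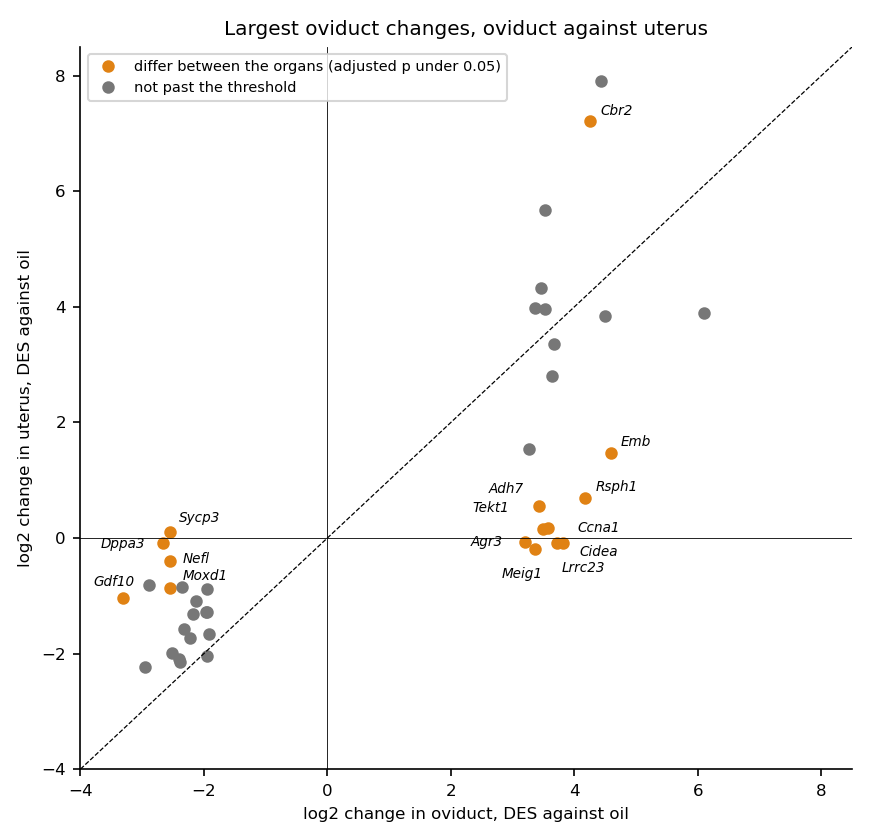
Fitted log2 change with DES in the oviduct (horizontal) and uterus (vertical) of the 20 largest rises and 20 largest falls of the oviduct, with the line of equal change dashed. Orange points with names are genes whose change differs between the organs at an adjusted p under 0.05. All genes shown were chosen by their oviduct change, which favours differences toward the oviduct. The ciliary genes Rsph1, Lrrc23, Tekt1 and Meig1 lie below 1 on the vertical axis, and Cbr2 lies above the dashed line.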

How the data were processed

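RNA of newborn oviduct, uterus and vagina was hybridised to 1 array per sample. In the deposited files of single arrays, per the file headers, the authors give a linear signal intensity for every probe set, with a detection call and detection p-value. Neither its software version nor its scaling is given in the sources used here. The deposited value table has the same intensity and supplied oil oviduct array 1, since 0.873% of the values in that array's own file equal the table. Groups follow the labels.

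Arrays were scaled to a mean of 500 after trimming 2% at each end and transformed as log2(signal + 32). Without 64 controls 22626 probe sets remained. Those called Present on at least 2 of 16 arrays with calls, 16702, were fitted with limma 3.58.1 (R 4.3.3, with a variance trend) over 17 arrays, with 11 residual and 5.81 prior degrees of freedom. The array of another type in the vagina was left out. The Benjamini-Hochberg adjustment was made within each contrast. P-values measure the spread between these arrays, from 3 litters per the labels, and the number of arrays limits the precision. Where a gene had several probe sets the brightest on average was used, and 9637 of 12393 genes were tested. For lower bounds, each array of the Absent group entered with the higher of its measured signal and the lowest signal called Present there, and oil array 1 entered as measured.

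Same-numbered DES and oil arrays deviated together from their group means (r = 0.174, 0.239 and 0.588 across genes), and counts of each list with the number as a block are given. These values do not show that the numbers pair the arrays within a scan day. The number goes with the scan day: arrays 1 and 2 with exchanged numbers, of the same day, gave 0.297 and 0.306, and arrays of different days -0.419 to -0.345. The fit without the block is the main result.

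The comparison, gene lists and naming rule were chosen with earlier results of these data known. Named genes are the 20 largest rises and falls past the threshold, Present throughout the higher group and without overlap, the called members of each list with up to 4 others of the highest level, and a set of fixed genes. Further list members are named beside them, and a few genes of the closing section were chosen after their values were seen. On simulated data with 200 of 16702 probe sets changed, limma recovered 48% of log2 changes of 1 and 85% of those of 2, with 11 false calls. The simulated noise was normal and independent between arrays and probe sets. The real arrays share deviations, as given above, so these figures may not hold for them. Alternatives were quantile normalisation, other pseudocounts (1 and 100), other filters, only the oviduct arrays, no trend, array weights, blocks for replicate number or scan day, the per-array files, arrays of the first scan day, and fits without each array, both arrays that share a repeated file, or oil arrays 1 and 3. Leaving out DES array 3 and oil array 1 was added after the data were seen.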

Additional observations from a re-analysis of the deposited data

Results flagged for a closer look

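The following results were picked out because the DES effect differed between oviduct and uterus by limma's test of the difference (adjusted p under 0.05), among the 40 largest oviduct changes. The 2 organs have separate DES and oil arrays. Values are the oviduct log2 change minus the uterine log2 change. Choosing genes by the size of their oviduct change favours differences toward the oviduct and can make them look larger. Ciliary genes and genes of ciliated cells responded more in the oviduct: Rsph1 (3.47), Lrrc23 (3.81), Tekt1 (3.34), Meig1 (3.57), Ccna1 (3.40) and Agr3 (3.28). In the uterus these genes had log2 changes of 0.70, -0.08, 0.16, -0.19, 0.17 and -0.07. The difference was 3.11 for Emb, 3.90 for the lipid droplet gene Cidea and 2.87 for Adh7. Cbr2 rose more in the uterus, with a difference of -2.96.

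Falls that were larger in the oviduct were those of Gdf10 (-2.27) and Moxd1 (-1.67). The same held for the germ cell genes Dppa3 (-2.57) and Sycp3 (-2.65) and the neurofilament gene Nefl (-2.15), whose marker sums by array are given in the report. Whether the amount of ovary or nerve taken with each organ differed was not tested. With groups of 3 arrays, no single sample was tested for standing apart.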

How the results depend on the processing

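The probe sets called for DES against oil in the oviduct numbered 1300, and those for the difference between oviduct and uterus 217. The counts were 1968 and 427 with array weights, 2455 and 541 with the replicate block, and 2560 and 584 with scan day as a block. They were 813 and 103 without DES array 3 and oil array 1, 587 and 89 without both arrays of the repeated file, and 422 and 83 without the oil arrays with muscle transcripts. Leaving out 1 array gave 817 to 1068 and 141 to 170. The lowest count, 817, was without DES array 1, and those for the difference were 142 without DES array 2 and 141 without oil array 1. Fewer arrays enter those fits, and the cause of the higher counts under weights and blocks was not tested. The other alternatives, namely both filters, both pseudocounts, no trend, quantile normalisation, the first scan day and the per-array files, stayed within 1.5 times for the oviduct (1152 to 1746) and for the difference. The fit of only the oviduct arrays, which has no uterus, gave 935. Of 252 named genes called, 134 lost the call without the oil arrays with muscle transcripts, 95 without the arrays of the repeated file and 46 to 63 when 1 array was left out. Of 45 list medians, 20 moved by over 1 SD of the 3 numbered pairs and 3 changed sign without oil arrays 1 and 3, 8 to 11 moved and 1 to 4 changed sign when 1 array was left out, and 0 to 10 moved and 0 to 3 changed sign under the others. No named gene's call reversed sign under any alternative run. All 1300 probe sets were called with the replicate block as well, which added calls to 44 of 172 named genes not called. Changes near or below background, where a group is called Absent, are given as bounds, which leave out the spread between arrays.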

Other observations

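Genes on no list that were chosen after their values were seen add to the groups above. The metallothioneins, small proteins that bind zinc and copper, rose: Mt1 was at 4519.8, 3343 and 5632 on the DES arrays and 863, 979 and 888 on the oil arrays (log2 change 2.24, SE 0.17, adjusted p = 3.68e-07), and Mt2 was at 6011, 5141 and 5289 on the DES arrays and 1589, 1164 and 1056 on the oil arrays (log2 change 2.10, SE 0.19, adjusted p = 2.64e-06). The groups did not overlap for either. More genes of cilia and flagella rose, with Dnajb13 (at least 8.62-fold), Mns1 (2.20), Ccdc65 (at least 4.58-fold), Mlf1 (2.79), Spa17 (at least 6.91-fold), Mak (2.15) and Cfap61 (at least 3.72-fold). Dnajb13 belongs to the radial spoke, Mns1 and Ccdc65 to the axoneme, and Cfap61 to the calmodulin complex of the spokes.

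The thyrotropin receptor Tshr (at least 8.28-fold), the calcium-binding S100g (at least 6.01-fold), an estrogen-responsive gene of rodent uterus, the kinase Sgk1 (1.87) and the transcription factor Stat5a (1.86) rose too. S100g was at 321, 327 and 210.3 on the DES arrays and 3.63, 4.18 and 27.9 on the oil arrays. Tshr was at 409, 545 and 489 on the DES arrays and 6.54, 41.8 and 50.4 on the oil arrays. In both, every DES array lay above every oil array. Among further falls were the interleukin receptor Il1r1 (at least 5.38-fold), the growth factor Ptn (-1.59) and the peptidase Dpp4 (-1.39). Ptn lost its call without oil array 2 (adjusted p = 0.106).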
